A study of Homo sapiens with 19 samples.

Results

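RAB genes encode small GTPases that mark membrane compartments and steer vesicles between them. This group was made up of every gene whose symbol is RAB followed by a number and, where present, a letter from A to D, in the deposited tables of skipped exon (SE) events, and it holds 45 of the 11705 genes of those tables. Across all 15 splicing tables the RAB genes carry 311 of 100239 distinct events. The rule used gene names and no measured value.

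A RAB protein cycles between a GTP-bound form on membranes and a GDP-bound form that is extracted into the cytosol. Guanine nucleotide exchange factors (GEFs) switch it on, GTPase-activating proteins (GAPs) switch it off, and effectors such as myosin motors and tethers read the active form. In mammary and other epithelia, members of the RAB11 and RAB8 branches are known for carrying apical and junctional cargo.

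The study measured polyA RNA in HMLE/Twist-ER cells, TERT-immortalized human mammary epithelial cells that carry a Twist-ER fusion protein which tamoxifen activates, in all groups. Cells without tamoxifen are called epithelial (EPI), and cells kept in 20 nM tamoxifen until they looked mesenchymal are called MES. Cells of either state stably expressed, from a lentiviral vector, a non-specific shRNA (control) or an shRNA against AKAP8, an RNA-binding protein that the study examined as a regulator of splicing during epithelial-mesenchymal transition (EMT). There were 3 EPI control, 3 EPI shAKAP8, 3 MES control and 2 MES shAKAP8 RNA-seq libraries, all from this cell line, and the labels do not say which hairpin a library carries. AKAP8 binding was mapped by single-end enhanced crosslinking and immunoprecipitation (seCLIP) in EPI and in MES cells, with 2 immunoprecipitates and 2 inputs for each state.

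Each library held 21198882 to 28261544 junction reads of SE events, of which RAB genes took 80309 to 101121 reads, or 0.316% to 0.436%. A gene's value is the sum of the junction reads of its SE events that are listed in all 3 comparisons, scaled between libraries, and fold changes are on the log2(scaled reads + 1) scale. Such sums serve to compare libraries for 1 gene and not to rank genes. AKAP8 itself had 243.8, 309.9 and 245 scaled reads in the EPI controls and 120.7, 98.8 and 124.8 in the EPI shAKAP8 libraries, and 382.3, 195.8 and 247.7 in the MES controls against 108.3 and 121.9 in MES shAKAP8. The knockdown libraries were below every control of their state (limma, adjusted p = 0.0664 in EPI and 0.0322 in MES). The markers went with the state labels, since all 5 epithelial markers tested fell and all 10 mesenchymal markers tested rose in MES control over EPI control. In these bulk samples, fewer cells of a type and less RNA per cell cannot be told apart.

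The sequences behind the splicing difference with the smallest adjusted p in the family are the 2 exons of RAB6A below. RAB6A, a Golgi RAB known for retrograde transport, has 2 adjacent coding exons of 106 bases each on the minus strand of chromosome 11 (GRCh37), chr11:73429830-73429935 and chr11:73429658-73429763, with 66 bases between them. A transcript takes either exon, and the 2 forms are known as the isoforms RAB6A and RAB6A′. Capitals mark the 31 positions at which the exons differ, and the other 75 (70.8%) are the same.
RAB6A exon nearer the gene start: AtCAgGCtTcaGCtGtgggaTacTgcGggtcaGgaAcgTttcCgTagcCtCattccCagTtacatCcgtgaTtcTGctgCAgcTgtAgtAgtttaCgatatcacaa
RAB6A exon nearer the gene end: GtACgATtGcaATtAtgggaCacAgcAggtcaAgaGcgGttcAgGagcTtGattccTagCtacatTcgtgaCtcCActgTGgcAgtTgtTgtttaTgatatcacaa

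AKAP8 seCLIP peaks in RAB genes had their midpoints in introns. The strongest peak of RAB11B and of RAB40C in each state is shown to let the base composition be seen. These 4 peaks are 37.4% to 54.2% G, and other peaks in RAB genes can be richer, such as an EPI peak in RAB40B of 61.0% G. Capitals mark runs of at least 3 G on the transcribed strand.
RAB11B, EPI, chr19:8455832-8455938, plus strand: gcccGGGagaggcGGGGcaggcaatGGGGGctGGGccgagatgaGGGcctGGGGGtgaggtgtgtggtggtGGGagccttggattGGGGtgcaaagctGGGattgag
RAB40C, EPI, chr16:671893-671991, plus strand: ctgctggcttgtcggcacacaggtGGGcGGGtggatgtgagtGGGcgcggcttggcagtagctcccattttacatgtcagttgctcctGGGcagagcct
RAB40C, MES, chr16:671663-671754, plus strand: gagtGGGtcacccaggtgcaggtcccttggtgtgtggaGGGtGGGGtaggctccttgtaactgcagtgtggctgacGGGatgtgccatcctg
RAB11B, MES, chr19:8461669-8461731, plus strand: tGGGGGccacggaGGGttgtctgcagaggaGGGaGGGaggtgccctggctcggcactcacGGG

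The comparison of MES control with EPI control asks how the RAB family differed between the epithelial and the mesenchymal state. Of the 45 members, 36 had a gene value and all 36 were tested, among 9016 genes. RAB25 and RAB17 fell and RAB30 and RAB8B rose by more than 2-fold at an adjusted p under 0.05. These 4 calls are 11.1% of the 36 members, close to the 12.5% called among all genes tested. At any fold change, 10 members (27.8%) passed an adjusted p of 0.05, against 23.9% of all genes. Of the 10, 3 rose and 7 fell. The median log2 fold change of the members was -0.11, against 0.011 over all genes. The members without a value were RAB3A, RAB3B, RAB3D, RAB12, RAB15, RAB21, RAB24, RAB26 and RAB38, for which no SE event stood in all 3 comparisons.

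The recycling endosome held both members that fell past 2-fold. RAB25, an epithelial relative of RAB11A known for returning cargo to the apical surface, had 1947.3, 2369.3 and 1778.4 scaled reads in the EPI controls and 46.1, 60.2 and 72.7 in the MES controls. The groups stood far apart, and RAB25 fell by 5.08 ± 0.29 (SE) on the log2 scale (limma, adjusted p = 1.8e-07). RAB17, known for transcytosis and apical sorting in polarized epithelia, had 93, 87.6 and 94.1 scaled reads in the EPI controls and 8.8, 19.4 and 10.5 in the MES controls. It fell by 2.81 ± 0.34 (SE) on the log2 scale (adjusted p = 7.2e-05), on a single SE event. Beside these, the summed level of the epithelial markers was 7353 to 8774 scaled reads in the EPI controls and 547 to 896 in the MES controls, and their part in the RAB25 and RAB17 differences was not tested.

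The other recycling members moved by less. RAB11A, the general recycling endosome RAB, went from 5748.8, 5715.6 and 5867.7 scaled reads in the EPI controls to 4450.8, 4008.6 and 3894.4 in the MES controls. It fell by 0.49 ± 0.13 (SE) on the log2 scale (adjusted p = 0.0126), below every EPI control in every MES control. RAB4B, known for fast recycling from early endosomes, fell by 0.63 ± 0.21 (SE, adjusted p = 0.0444). In all, 4 of the 8 recycling members passed an adjusted p of 0.05, all of them lower in MES, where 23.9% of all genes passed in either direction, and the median log2 fold change of the 8 was -0.49. RAB4A, RAB11B and RAB14 had log2 fold changes of -0.49, -0.36 and -0.36 and did not pass (adjusted p = 0.0652, 0.186 and 0.29). RAB35, the sole recycling member with a value above 0, had a log2 fold change of 0.20 ± 0.19 (SE, adjusted p = 0.463).

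Late endosome and lysosome members lay on the same side. RAB9A, known for return traffic from late endosomes to the Golgi, had 514.1, 477.2 and 450.8 scaled reads in the EPI controls and 292.1, 243.8 and 296.2 in the MES controls, and fell by 0.79 ± 0.21 (SE) on the log2 scale (adjusted p = 0.0147). RAB7A, which governs fusion of late endosomes with lysosomes, fell by 0.49 ± 0.15 (SE, adjusted p = 0.0272). RAB29, linked to Golgi and lysosome function, had a log2 fold change of -0.54 ± 0.20 (SE, adjusted p = 0.0702). RAB32, known from lysosome-related organelles, stood at -0.13 (adjusted p = 0.604). All 4 members tested in this class had values below 0, and 2 of them passed the adjusted p, beside the same 23.9% of all genes.

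Among exocytic members the directions were mixed. RAB8B, which with RAB8A directs vesicles to the plasma membrane, had 489.4, 428 and 590.4 scaled reads in the EPI controls and 1274.2, 1054.7 and 1213.1 in the MES controls, and rose by 1.24 ± 0.22 (SE) on the log2 scale (adjusted p = 0.00145). RAB8A itself had a log2 fold change of 0.073 ± 0.14 (SE, adjusted p = 0.75), which turned below 0 when libraries were scaled by total junction reads. RAB27B, known for docking exosome-bearing endosomes at the plasma membrane, had 346.2, 205.6 and 385.7 scaled reads in the EPI controls and 187.2, 148.9 and 168.6 in the MES controls. It fell by 0.85 ± 0.28 (SE, adjusted p = 0.0422), while its paralog RAB27A had a log2 fold change of -0.40 ± 0.18 (SE, adjusted p = 0.128). RAB10 and RAB13, which serve basolateral and junctional traffic in epithelia, had log2 fold changes of -0.14 and 0.018 (adjusted p = 0.45 and 0.954).

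Endoplasmic reticulum (ER) and Golgi members were mostly level. Of the 9, only RAB30 passed an adjusted p of 0.05. RAB30, a Golgi RAB, had 61.7, 59 and 35.2 scaled reads in the EPI controls and 210.7, 190.7 and 186.6 in the MES controls, and rose by 1.94 ± 0.28 (SE) on the log2 scale (adjusted p = 0.00027). RAB36, a Golgi RAB related to RAB34, had 26.6 to 39.4 scaled reads in EPI and 39 to 69.6 in MES controls, with a log2 fold change of 0.66 ± 0.32 (SE, adjusted p = 0.157). RAB1A, which carries cargo from the ER to the Golgi, and RAB6A had log2 fold changes of 0.11 ± 0.13 and 0.13 ± 0.13 (SE, adjusted p = 0.59 and 0.528), and that of RAB1A turned below 0 with scaling by total junction reads. RAB1B, RAB2A, RAB2B, RAB18 and RAB34 lay between -0.041 and 0.20 on the log2 scale. None of the 5 early endosome members passed, with RAB5B, RAB5C, RAB22A and RAB31 between -0.31 and -0.029, and RAB5A, which drives early endosome fusion, had a log2 fold change of 0.26 ± 0.15 (SE, adjusted p = 0.238).

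Of the remaining 4 members, RAB23, a regulator of Hedgehog signalling at the cilium, had 698.1, 509.7 and 621.4 scaled reads in the EPI controls and 1261.4, 1168.9 and 1145.7 in the MES controls. It rose by 0.98 ± 0.27 (SE) on the log2 scale (adjusted p = 0.0189), just inside 2-fold. RAB40B, of a RAB branch that works with a ubiquitin ligase, had a log2 fold change of -0.56 ± 0.37 (SE, adjusted p = 0.301). RAB28 and RAB40C had log2 fold changes of -0.087 and -0.061 (adjusted p = 0.784 and 0.908).

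**Figure D1:**
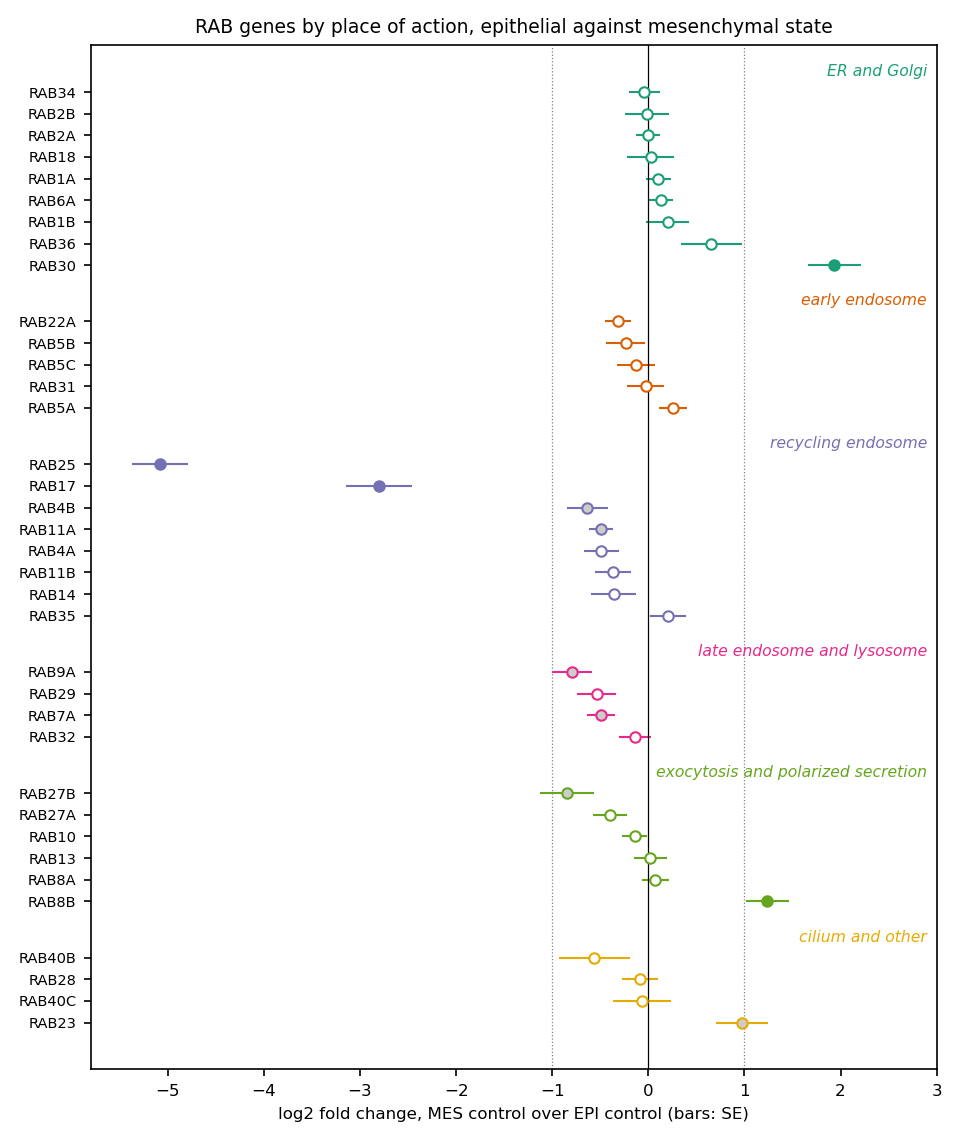
Log2 fold change of the 36 RAB genes tested, MES control over EPI control, grouped by the place of action of the protein, with standard errors as bars. Filled points passed an adjusted p of 0.05 and 2-fold, grey points passed the adjusted p at a smaller fold and open points passed neither; dotted lines mark 2-fold, and RAB25 (-5.08) and RAB17 (-2.81) stand apart at the left.

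The proteins that switch and read RABs were taken from a list of GEFs, GAPs, effectors and prenylation or extraction factors. Of the 121 tested, 11.6% were called between MES and EPI controls, against 12.5% of all genes. Of 48 effectors tested, 3 rose and 5 fell past 2-fold (16.7%). MYO5B, the myosin motor that binds RAB11A and RAB25, had 395.5, 527.4 and 458 scaled reads in the EPI controls and 18.6, 29.6 and 29.5 in the MES controls, and fell by 4.12 ± 0.35 (SE) on the log2 scale (adjusted p = 3.2e-06). RAB11FIP4, a RAB11 adaptor, fell by 2.28 ± 0.48 (SE, adjusted p = 0.00365), and RIMS2, a RAB3 effector at release sites, by 3.51 ± 0.40 (SE, adjusted p = 4.2e-05). MYO5C had 43.6, 45.3 and 30 scaled reads in the EPI controls and only 3.9, 3.1 and 2.1 in the MES controls. These 4 had the largest changes of the class, and the 3 effectors that rose are named here after their values were seen. MLPH (melanophilin), which links RAB27A to myosin, had 992.1, 888.5 and 1829.1 scaled reads in the EPI controls and 3426.6, 4830.7 and 6313.3 in the MES controls, and rose by 2.01 ± 0.29 (SE) on the log2 scale (adjusted p = 0.00029). SYTL4 (granuphilin), a RAB27 effector in secretion, rose by 1.47 ± 0.32 (SE, adjusted p = 0.00452), and GORAB, a Golgi protein, by 1.16 ± 0.40 (SE, adjusted p = 0.04996).

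Of 38 GEFs tested, 2 rose and 2 fell past 2-fold (10.5%, against the same 12.5% of all genes). DENND5B had 36, 47.2 and 43.4 scaled reads in the EPI controls and 240.1, 241.7 and 290.9 in the MES controls, and rose by 2.58 ± 0.25 (SE) on the log2 scale (adjusted p = 9.6e-06). DENND5A, its paralog, rose by 1.19 ± 0.16 (SE, adjusted p = 0.00013). RAB3IP (Rabin8), an exchange factor for RAB8, fell by 1.53 ± 0.18 (SE, adjusted p = 6.4e-05), and DENND2C fell by 1.27 ± 0.34 (SE, adjusted p = 0.0149). Of 29 GAPs, 2 (6.9%) were called. GRTP1 fell by 1.35 ± 0.40 (SE, adjusted p = 0.0255) and TBC1D4 by 1.15 ± 0.23 (SE, adjusted p = 0.00259), and none of the 6 prenylation and extraction factors passed 2-fold.

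The comparisons of shAKAP8 with control ask whether RAB genes responded to loss of AKAP8 in either state. In EPI cells none of the 36 members was called by limma, against 0.189% of all genes (17 genes), and 2 (5.56%) had an unadjusted p under 0.05, fewer than the 9.87% of all genes. RAB35 went from 693.3, 853.1 and 590.4 scaled reads in the controls to 501, 532 and 511.8 in the shAKAP8 libraries, with a log2 fold change of -0.45 ± 0.19 (SE, adjusted p = 0.44). RAB27A had a log2 fold change of -0.42 ± 0.18 (SE, adjusted p = 0.471) and went from 417.3, 489 and 373.3 to 350.6, 293.5 and 310 scaled reads. The groups did not overlap for either gene, which held for 5 of the 36 members in all and for 14.1% of all genes. RAB23 (-0.51), RAB31 (-0.40), RAB40C (0.38) and RAB29 (-0.38) had the other log2 fold changes among the 6 largest, with adjusted p from 0.53 to 0.79. Samples of the same place in the EPI control and EPI shAKAP8 lists deviated together, and with that place as a block 72 genes were called in all, none of them a RAB, and limma voom called no RAB gene.

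In MES cells, RAB25 was the sole member called, 2.78% of the members against 2.27% of all genes tested. It had 46.1, 60.2 and 72.7 scaled reads in the MES controls and 16.3 and 28 in the MES shAKAP8 libraries, and fell by 1.41 ± 0.33 (SE) on the log2 scale (limma, adjusted p = 0.0316). The call rests on few reads and was lost with limma voom (adjusted p = 0.22) and without any of EPI control 1 (adjusted p = 0.0562), MES control 2 (0.0921), MES control 3 (0.0886), MES shAKAP8 1 (0.235) or MES shAKAP8 2 (0.0575). The epithelial markers summed to 547 to 896 scaled reads in the MES controls and 451 to 660 in MES shAKAP8, and their part was not tested.

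Over all members, 6 (16.7%) had an unadjusted p under 0.05 in MES, against 21.8% of all genes. Groups did not overlap for 17 of the 36 members, against 45.1% of all genes. The members with the largest changes after RAB25 had lower values in MES shAKAP8 without passing the adjusted p. RAB27B had 80.5 and 96.9 scaled reads, below the 148.9 to 187.2 of the MES controls, and a log2 fold change of -0.92 ± 0.31 (SE, adjusted p = 0.109). RAB31, which carries cargo between the Golgi and endosomes, had 471.4, 501.8 and 527 scaled reads in the controls and 264.5 and 351.7 after knockdown, with a log2 fold change of -0.71 ± 0.21 (SE, adjusted p = 0.0778). RAB23 (-0.70, adjusted p = 0.197), RAB8B (-0.53, adjusted p = 0.242) and RAB27A (-0.49, adjusted p = 0.175) followed. Of the RAB regulators tested in MES cells, the GAPs GRTP1 (fell by 2.13 ± 0.44 on the log2 scale, SE, adjusted p = 0.0196), TBC1D17 (rose by 1.48 ± 0.38, adjusted p = 0.0446) and TBC1D8 (rose by 1.17 ± 0.27, adjusted p = 0.0323) were called, 2.48% of the 121 regulators against the 2.27% of all genes, and in EPI cells none was. GRTP1 had few reads, 42.1, 33.7 and 33.7 scaled reads in the MES controls and 3.8 and 14 in MES shAKAP8. The TBC1D17 value rests on a single SE event.

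**Figure D2:**
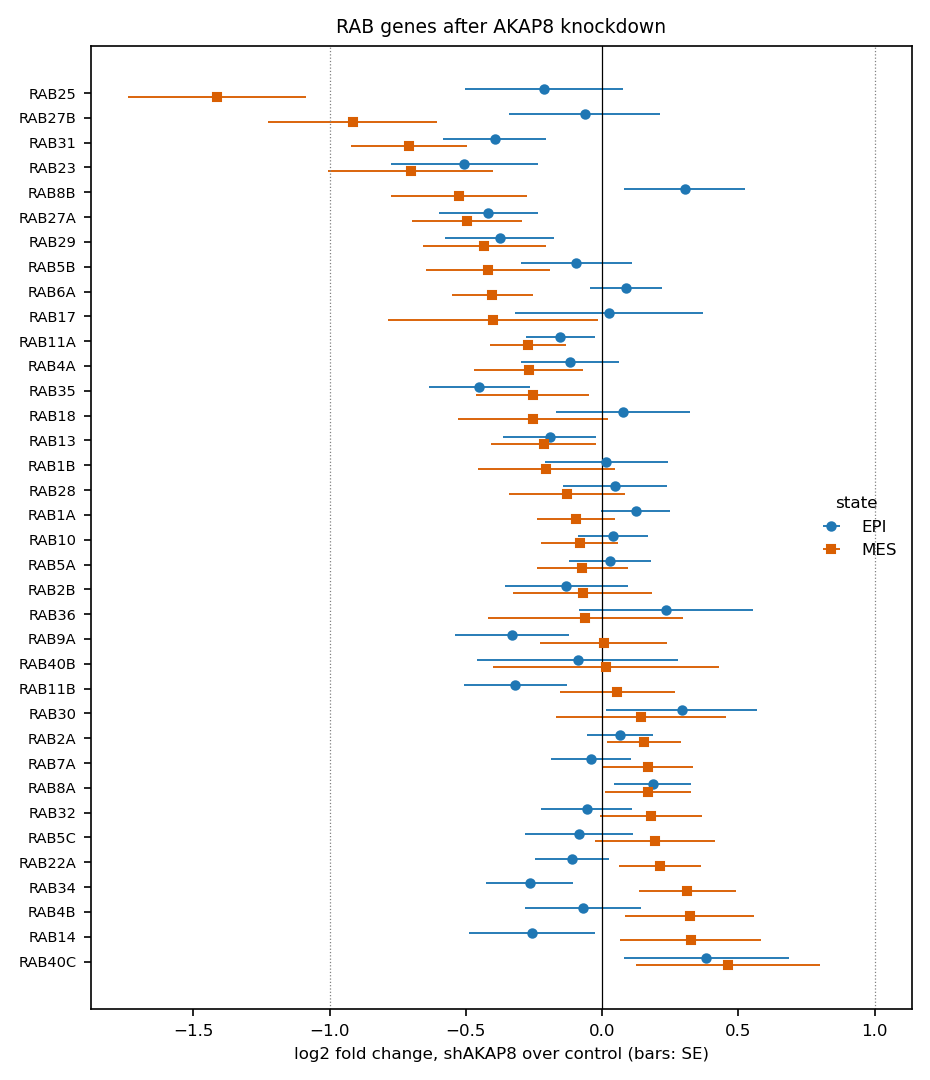
Log2 fold change of the 36 RAB genes after AKAP8 knockdown, shAKAP8 over control, in EPI cells (circles, 3 against 3 libraries) and MES cells (squares, 2 against 3), with standard errors as bars and dotted lines at 2-fold. RAB25 in MES cells (-1.41) lies past 2-fold, and no gene in EPI cells does.

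Whether the response to knockdown differed between the states was tested as an interaction. No member was called by limma, against 0.0111% of all genes (1 gene), and limma voom called none. An unadjusted p under 0.05 was found for 4 members (11.1%), against 6.54% of all genes. The interaction estimate (MES response minus EPI response) was -1.20 ± 0.44 (SE, adjusted p = 0.678) on the log2 scale for RAB25, -0.83 ± 0.34 (SE) for RAB8B, -0.49 ± 0.20 (SE) for RAB6A and, in the other direction, 0.58 ± 0.24 (SE) for RAB34, the last 3 with an adjusted p of 0.739.

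Within the knockdown cells, MES shAKAP8 was set against EPI shAKAP8. Here 4 members were called, RAB25 (fell by 6.28 ± 0.33 on the log2 scale, SE), RAB17 (fell by 3.23 ± 0.38), RAB27B (fell by 1.70 ± 0.31) and RAB30 (rose by 1.79 ± 0.31), with adjusted p from 1.2e-07 to 0.0019, or 11.1% of members against 12.3% of all genes. RAB27B had 334.3, 200.6 and 357.9 scaled reads in EPI shAKAP8 and 80.5 and 96.9 in MES shAKAP8. RAB8B had 728, 416.2 and 765.7 against 874 and 763.4 in the same libraries, a log2 fold change of 0.41 ± 0.25 (SE, adjusted p = 0.275), and its groups overlapped.

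**Figure D3:**
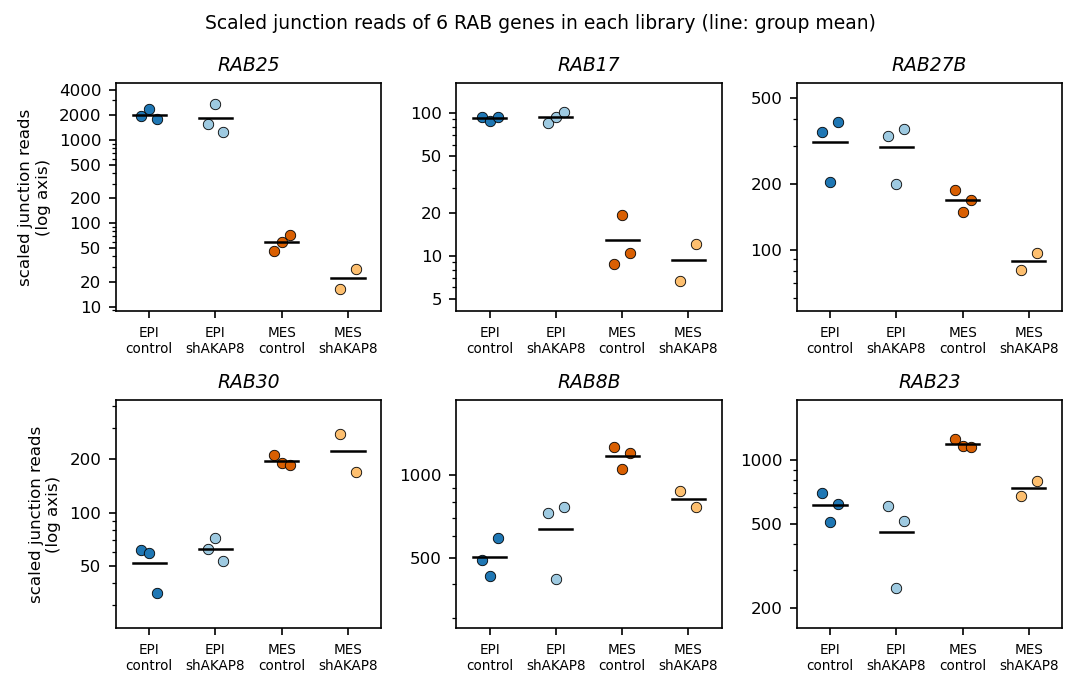
Scaled junction reads of 6 RAB genes in every library, on log axes, with a line at each group mean. RAB25 and RAB17 lie lower in all 5 MES libraries than in all 6 EPI libraries, RAB30 lies higher in all 5, and RAB8B and RAB23 are highest in the 3 MES controls.

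Splicing was read from inclusion and skipping junction reads as percent spliced in (PSI), given here as a fraction from 0 to 1. An event was called at an adjusted p under 0.05 with a difference in PSI of at least 0.1, and only events averaging 20 or more reads a library were tested. Most RAB SE events had a mean PSI above 0.9 or below 0.1, as did most SE events of all genes. Of 201 RAB SE events tested in any comparison 19, in 12 genes, had a mean PSI between 0.1 and 0.9, and 6 of these 19 exons have a length that is a multiple of 3. Within a comparison, 7.9% to 9.1% of RAB SE events tested had such a mean PSI, against 9.9% to 11.3% of all SE events.

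Between EPI and MES controls, 7 of 236 RAB events were called, against 1.63% of all events. They were 1 of 162 SE events (1.37% of all SE events were called) and 6 of 56 mutually exclusive exon (MXE) events (2.53% of all MXE events). The 6 MXE calls come from 2 genes, RAB6A and RAB34, and the 5 in RAB34 share exons and reads.

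For the RAB6A exon pair printed above, PSI is the share of the exon nearer the gene start. It was 0.354, 0.361 and 0.410 in the EPI controls and 0.609, 0.640 and 0.604 in the MES controls, from 1543 to 2003 junction reads a library. The groups did not overlap, and PSI rose by 0.243 (quasi-binomial F test, adjusted p = 7.1e-42), so that the more used exon switched from that nearer the gene end to that nearer the gene start. The call held in a fit of limma on the logit of PSI (adjusted p = 0.0246). RAB6C, an intronless copy of RAB6A on chromosome 2 (chr2:130737239-130740311), matches the exon nearer the gene start at 101 of 106 bases (95.3%) and the other at 73 (68.9%), and its part in the read counts was not tested.

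After knockdown the RAB6A PSI was 0.448, 0.382 and 0.435 in EPI and 0.689 and 0.661 in MES. Both differences were small, 0.047 in EPI (adjusted p = 0.604, unadjusted p = 0.018) and 0.051 in MES (adjusted p = 0.977, unadjusted p = 0.0274). The EPI values overlapped those of the controls, and the MES values lay above the 0.609 and 0.640 of the 2 controls in that comparison.

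RAB9A was the sole called SE event. Its 89-base exon chrX:13721933-13722021 lies in the 5′ untranslated region. PSI was 0.565, 0.564 and 0.640 in the EPI controls and 0.784, 0.743 and 0.850 in the MES controls, and rose by 0.203 (quasi-binomial F test, adjusted p = 0.00031). The call was lost without EPI control 3, where the difference was 0.228 (adjusted p = 0.428), and with limma on the logit of PSI (adjusted p = 0.286). In EPI shAKAP8 the PSI was 0.757, 0.684 and 0.685, above every EPI control (difference 0.119, adjusted p = 0.51, unadjusted p = 0.0018). In MES shAKAP8 it was 0.842 and 0.849, against 0.784 and 0.743 in the controls of that comparison (difference 0.082, adjusted p = 0.551). MES control 3, which is not in that comparison, stood above both knockdown values at 0.850. The RAB9A gene value above is the sum of the reads of this event.

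RAB34, a Golgi and lysosome positioning RAB that is also needed for cilia, had 5 called MXE events between exons at chr17:27042818-27042919, chr17:27043011-27043076, chr17:27043921-27044012 and chr17:27044231-27044443. The exon nearer the gene start lost 0.108 to 0.213 of PSI in each. In the event with the most reads, between the exons of 92 and 102 bases, PSI was 0.413, 0.413 and 0.334 in the EPI controls and 0.245, 0.165 and 0.208 in the MES controls (difference -0.181, adjusted p = 6.7e-19). These exons are also read as skipped exons with PSI mostly above 0.7, so the MXE values compare reads of their outer junctions in transcripts that can hold both. None of the 5 calls held with limma on the logit of PSI (adjusted p from 0.109 to 0.398). The call of the event between the exons of 213 and 66 bases was also lost without EPI control 1 or 2, where the difference was -0.080 and -0.093, and without MES control 2 or 3 (adjusted p = 0.185 and 0.0591), and the event with the difference of -0.213 was lost without MES control 2 (adjusted p = 0.264). Over all RAB genes, PSI of the exon nearer the gene start was lower in MES in 37 of 56 MXE events tested, against 52.9% of 12148 MXE events of all genes. The 56 events come from 23 genes, with 12 from RAB34, so they are not separate members. After knockdown, where no RAB event was called, it was lower in 38 of 49 MXE events in EPI (53.3% of all) and in 26 of 56 in MES (45.8% of all). Between EPI and MES controls, 75% of RAB MXE events tested had a mean PSI between 0.1 and 0.9, against 8.64% of RAB SE events. Exons held in the same transcripts can be among these MXE pairs, so such counts are not counts of exon switches.

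In RAB34 the knockdown libraries were spread widely. In the same event PSI was 0.361, 0.131 and 0.243 in the EPI shAKAP8 libraries and 0.188 and 0.406 in the MES shAKAP8 libraries, beyond the range of the controls of their state on at least 1 side. The difference in EPI was -0.142 (adjusted p = 0.747). That in MES, where MES control 3 was not in the comparison, was 0.092 (adjusted p = 0.998).

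A further 3 RAB events passed the adjusted p in EMT with a difference under 0.1, and they are named here after their values were seen. RAB18, known from the ER and lipid droplets, has an 87-base alternative exon at chr10:27820458-27820544. Its PSI was 0.0903, 0.0837 and 0.0935 in the EPI controls and 0.0137, 0.0079 and 0.0159 in the MES controls, from 638 to 933 junction reads a library, and fell by 0.077 (quasi-binomial F test, adjusted p = 3.4e-17). In EPI shAKAP8 it was 0.0629, 0.166 and 0.0816, and in MES shAKAP8 0.0159 and 0.0070. In RAB1A and RAB7A, MXE events differed by -0.061 and -0.063 (adjusted p = 0.00033 and 0.00089). No SE event tested in these genes had a mean PSI between 0.1 and 0.9, and none did in RAB8B or RAB36, whose MXE events are named below. Whether transcripts of these 4 genes hold both exons of a pair was not tested. As for RAB34, their MXE values alone do not show a switch between exons.

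**Figure D4:**
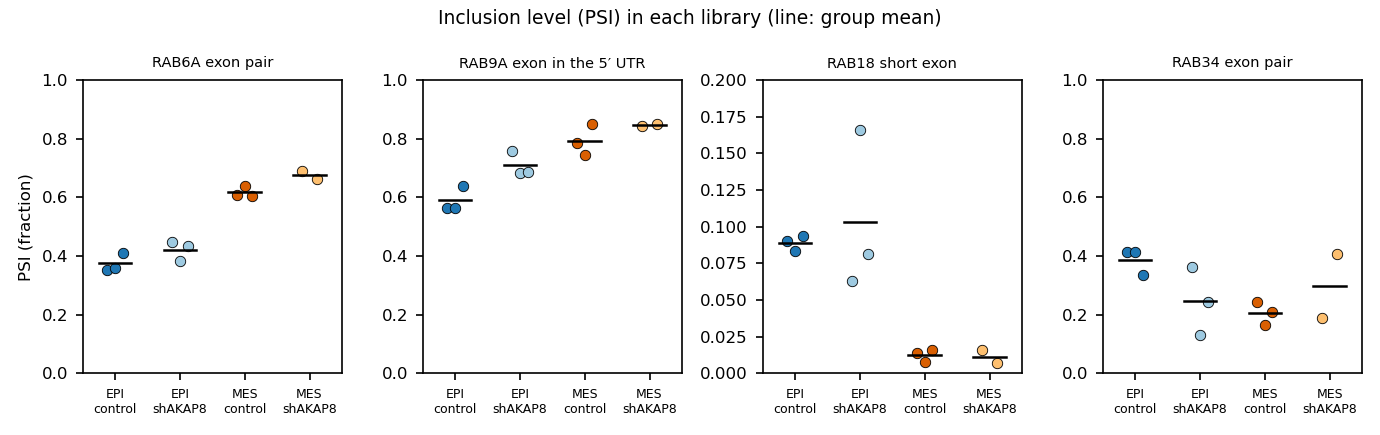
PSI, as a fraction, in every library for the RAB6A exon pair, the RAB9A exon, the RAB18 exon and the RAB34 exon pair with the most reads, with a line at each group mean and a shorter axis, up to 0.2, for RAB18. RAB6A and RAB18 separate all EPI from all MES libraries, while RAB34 values in the knockdown libraries spread from 0.131 to 0.406.

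Among the events with the largest differences that did not pass the adjusted p, the 61-base RAB40C exon chr16:667208-667268 had a PSI of 0.483, 0.566 and 0.730 in the EPI controls and 0.789, 0.918 and 0.802 in the MES controls (difference 0.244, adjusted p = 0.368), from 14 to 34 junction reads a library. A RAB36 MXE event differed by -0.180 (adjusted p = 0.491). Both are lowly read genes.

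After AKAP8 knockdown no RAB event was called in either state. In EPI, 228 were tested and 0.0431% of all events were called (28 events), and 19 RAB events (8.33%) had an unadjusted p under 0.05, against 6.27% of all. In MES, 213 were tested and 0.0725% of all events were called (43 events), and 6 RAB events (2.82%) had an unadjusted p under 0.05, against 4.33% of all. Limma on the logit of PSI called no event of any gene, of 65008 tested in EPI and 59288 in MES. Its lack of RAB calls is therefore no separate evidence on RAB events. Without EPI shAKAP8 library 1, 5 of 227 RAB events were called in EPI, among them 3 of the RAB34 MXE events with differences of -0.200, -0.182 and -0.129. Calls over all genes rose as well in that setting, to 137 of 64954 events. The groups did not overlap in 10 RAB events in EPI (4.39%, against 6.76% of all) and in 47 in MES (22.1%, against 24.1% of all). Among events whose groups did not overlap, the largest difference in EPI was that of a 79-base RAB34 exon, chr17:27044231-27044309, read as a skipped exon. Its PSI was 0.846, 0.905 and 0.922 in the controls and 0.737, 0.637 and 0.817 in the shAKAP8 libraries (difference -0.161, adjusted p = 0.51), from 22 to 76 junction reads a library. A RAB8B MXE event followed with 0.124 (adjusted p = 0.604). In MES the largest was that of the RAB34 MXE event with the EMT difference of -0.213, between the exons of 213 and 92 bases. Its PSI was 0.437 and 0.50 in the 2 controls of that comparison and 0.582 and 0.797 in MES shAKAP8 (difference 0.221, adjusted p = 0.563, unadjusted p = 0.0029), and MES control 3, which is not in that comparison, stood between the latter at 0.682. A RAB29 exon followed with 0.120 (adjusted p = 0.551). For the interaction, 115 RAB SE events were tested by the quasi-binomial F test and none was called, against 0.00993% of all (3 events), and 14 (12.2%) had an unadjusted p under 0.05, against 9.85% of all.

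AKAP8 seCLIP peaks were kept at a log2 of immunoprecipitate over input of at least 2 and a -log10 adjusted p of at least 3. In the EPI list 61 of 21665 peaks lay in RAB genes on the transcribed strand, in 6 genes, and in the MES list 60 of 26228, in 4 genes. RAB40C held 24 EPI and 30 MES peaks, RAB35 held 15 and 17, RAB11B 14 and 6, and RAB40B 6 and 7, while RAB27A and RAB31 held 1 EPI peak each. All had their midpoint in an intron. Some listed peaks overlap one another, and merged they form 38 EPI and 39 MES stretches, of which 22 of 54 in all were covered in both states. Of genes with a value, 6 of 36 RAB genes (16.7%) held an EPI peak, against 20.2% of all, and 4 of 36 (11.1%) held a MES peak, against 12.4%.

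Of the EPI peaks, 42 of 61 overlapped a MES peak, and of the MES peaks, 36 of 60 overlapped an EPI peak. The replicates were merged before deposit, so no spread between them can be given. RAB11B had the highest log2 in EPI (5.12) and RAB40C in MES (5.11), in the peaks printed above. The letters GGG stood on the transcribed strand in the 101 bases around the centre of all 61 EPI and 60 MES peaks, as in 99.9% and 99.6% of all peaks. AGGG stood in 93.4% of the RAB peaks in EPI and 96.7% in MES, against 88.3% and 82.7% of all peaks, TGGG in 90.2% and 78.3% against 91.6% and 89.7%, and GGGG in 91.8% and 95% against 93.0% and 87.9%. GGG is part of each of the longer motifs. No peak lay within 1000 bases of the alternative exons of an event named here. Of the flanking exons of these SE and MXE events, those of the RAB40C exons did have peaks within that distance, 5 EPI and 3 MES peaks at chr16:640089-640433, the nearest at 13 bases, and 1 of each state at chr16:675432-675509. RAB6A, RAB9A, RAB18 and RAB34 held no peak.

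**Figure D5:**
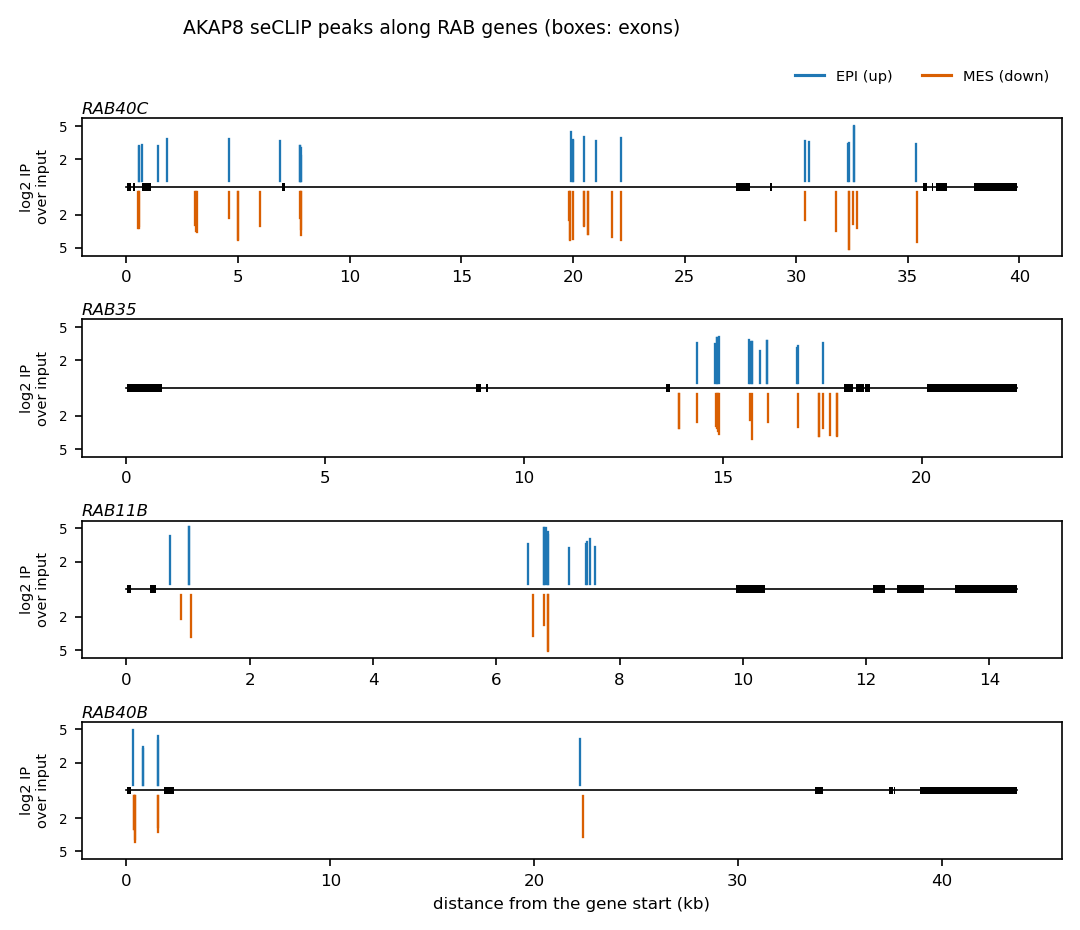
AKAP8 seCLIP peaks along the 4 RAB genes with peaks in both states, by distance from the gene start in kb, with exons as boxes. Bars above the gene give the log2 of immunoprecipitate over input of EPI peaks and bars below it that of MES peaks, and they gather in introns, with RAB35 peaks all in the same intron.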

How the data were processed

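The authors aligned stranded paired-end reads to GRCh37 with STAR (version 2.6.1a in the methods) and counted inclusion and skipping junction reads per event and library with rMATS, and the deposited tables hold these counts as comma-separated lists. The 30 columns of PSI values per library were not used, since PSI was recomputed from the counts and the effective lengths. The columns of the authors' own comparisons (p-values, differences) and the gene table, which holds log2 fold changes and q-values of the authors, were not used. The deposited peak lists hold, per the sample labels and methods, a log2 (immunoprecipitate over input) and an adjusted p as −log10 for each peak, merged over replicates.

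Gene values were sums of SE reads, scaled by median of ratios, kept at 10 or more in at least 2 libraries, and tested on log2(value + 1) with limma 3.58.1 in R 4.3.3 over all 11 libraries, adjusted by Benjamini-Hochberg over 9016 genes. Events were tested by a quasi-binomial F test with dispersion moderated by limma, adjusted within event type and comparison. In simulated data for the MES knockdown, 44% of SE events changed by 0.2 and 80% of those changed by 0.3 were called, and in the EPI knockdown 68% and 97%. Changes were set only in well-read SE events of middle PSI, with a fixed spread between libraries. Of the 201 RAB SE events tested, only 19 had a mean PSI between 0.1 and 0.9. The shares do not give the power for RAB events outside those settings or with a wider spread, such as those of RAB34. EPI controls serve in 2 comparisons, and 2 of the MES controls in 2. The labels do not say whether replicates were separate cultures, so p-values refer to these samples only. For events, the moderated dispersion draws on all events, so an adjusted p can be small where an event's own libraries vary widely. The RAB34 event with the EMT difference of -0.213 had overlapping groups, yet an adjusted p of 0.00023 by the quasi-binomial F test. With limma on the logit of PSI it was 0.398. Deviations of EPI control and EPI shAKAP8 libraries of the same place in their lists correlated at 0.281, 0.580 and 0.493, which was taken as pairing from the data.

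Coordinates and sequences are GRCh37, with annotation from GENCODE. Named are members called in any contrast, the 12 (EMT) or 6 (each knockdown) with the largest changes, 9 familiar members, events called, the 5 largest non-overlapping events per comparison, and up to 4 called regulators per class. Members, lists and rules were chosen with earlier results of these data known.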

Additional observations from a re-analysis of the deposited data

How the results depend on the processing

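The 4 RAB genes called between MES and EPI controls remained called under every alternative scaling, pseudocount, filter, gene value and tool tried, and without each library in turn (4 to 5 genes called). RAB23 was also called without EPI control 1 or MES control 3 and on the single SE event with the most reads, and RAB27B without EPI control 2. With gene values from events of all 5 types, RAB15, which had no value from SE events, was also called. For MES knockdown the count of 1 became 2 on the single SE event with the most reads of each gene (RAB25 and RAB27B), 0 with limma voom, and 0 to 1 without each library in turn. In EPI knockdown the event count of 0 became 0 to 5 without each library in turn, the 5 without EPI shAKAP8 library 1, and the cause was not tested. Over all genes, 137 events were called without that library, against 28 with every library. Of 7 events called between MES and EPI controls, only that of RAB6A was called with limma on the logit of PSI. With the replicate block in that limma fit none of the 7 was called, and the adjusted p of RAB6A was 0.184. The block fit called a RAB34 SE event instead (adjusted p = 0.0372), which the quasi-binomial F test had not called (adjusted p = 0.0898). Library places in EPI and MES controls correlated at only 0.079 to 0.265. The replicate block changed no count of RAB genes called, while over all genes it gave 376 calls in the MES knockdown, where places correlated at 0.173 and 0.022, and 15 for the interaction. Scaling by total junction reads moved the median of all genes by -0.10 in EMT, and the log2 fold changes of RAB1A and RAB8A there became -0.0087 and -0.041. At the stricter peak threshold (log2 of at least 3, -log10 adjusted p of at least 5) MES peaks fell to 32, and shared peaks were 21 in EPI and 19 in MES.

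Without each library in turn, differences in PSI that were not called changed sign in 10 events. In EPI knockdown they ran from -0.056 to 0.011 (RAB29 SE), -0.025 to 0.026 (RAB40C SE, second exon) and -0.095 to 0.0086 (RAB36 MXE). In MES knockdown they ran from -0.088 to 0.108 and -0.029 to 0.150 (RAB34 SE), -0.044 to 0.060 (RAB8B MXE), -0.142 to 0.047 (RAB40C SE), and -0.017 to 0.201, -0.049 to 0.164 and -0.0052 to 0.158 (RAB34 MXE). RAB36, RAB17, RAB40C, RAB30 and, in MES, RAB25 are among the members with few reads, and intervals and tests cover these libraries only.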
